A study of Mus musculus with 2 samples.

Results

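Vascular smooth muscle cells of the brain were examined in 2 droplet single-cell RNA libraries, 1 per genotype. A barcode was taken as a smooth muscle cell when it had at least 500 UMIs (unique molecular identifiers, counted mRNA molecules) and at most 10% mitochondrial UMIs, and when Acta2, Tagln and Myh11 together gave at least 3 UMIs and at least 0.3% of its UMIs. Its endothelial (Cldn5 and Flt1), microglial (Tmem119, P2ry12, Siglech, Gpr34 and Sall1) and fibroblast (Dcn and Col1a1) transcripts had to stay under 0.1%, 0.2% and 0.1% of UMIs. The cells were thus selected on their own expression of these genes, and the values of those genes are given as a description. The selection held 1163 of 37387 barcodes, 623 of 19159 in the library labelled KO and 540 of 18228 in the library labelled WT. These cells are called KO members and WT members below.

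The library labelled KO came from CD200R1-/- mice and the library labelled WT from wild-type mice, all aged 18 months, untreated and on a C57BL/6J background. Per the labels, the perfused brains were enzymatically dissociated, cells bearing CD11b were enriched on a magnet, and 3′ libraries were made with the 10x v3.1 chemistry. CD200R1 is an inhibitory receptor of myeloid cells, and CD11b, encoded by Itgam, is a myeloid surface protein, so smooth muscle cells were not the target of the selection. How many mice gave each library is not stated, and with 1 library per genotype no difference between genotypes could be tested. Intervals are 95% and cover counting error only. Cd200r1 had 5 UMIs in KO members and 3 UMIs in WT members, and the exons deleted in the mutant are not given, so these 3′ tags check no genotype.

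Vascular smooth muscle cells wrap arteries, arterioles and larger veins and set vessel diameter. A rise in cytosolic calcium activates myosin light-chain kinase, which phosphorylates the regulatory light chain of smooth muscle myosin and lets it pull on actin, while cGMP and myosin phosphatase bring relaxation. In the brain they lie along a continuum with pericytes, the mural cells of capillaries, and the transcription factor SRF with its coactivator myocardin maintains the contractile genes through a DNA element called the CArG box.

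The members made up 3.53% of the cells that passed the UMI and mitochondrial limits in the library labelled KO (95% Clopper-Pearson interval 3.26 to 3.81) and 3.25% in the library labelled WT (2.99 to 3.53). The ratio of these shares was 1.09 (0.965 to 1.22). Their depth differed: the median member had 4570 UMIs in the library labelled KO and 6079.5 UMIs in the library labelled WT, with 3174577 and 3367228 UMIs over all KO and all WT members. The median Acta2, Tagln and Myh11 share was 1.67% of UMIs in KO members and 1.61% in WT members. Just inside the limit, at 0.3 to 0.4%, lay 52 KO members and 33 WT members, and just outside it, at 0.2 to 0.3%, lay 62 barcodes labelled KO and 39 labelled WT. Vtn, a pericyte gene, was at 3431 CPM (UMIs scaled to a total of 1000000 over the cells summed) in the 52 KO members and at 6206 CPM in the 33 WT members just inside the limit, against 1156 CPM over all KO members and 1565 CPM over all WT members. The 2 libraries shared 103 barcode sequences, none of them a member.

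Myl9, the regulatory light chain, is a smooth muscle marker that the selection did not use (ENSMUSG00000067818, chromosome 2, 156775420 to 156781658, plus strand, GRCm38). It had a UMI in 93.9% of KO members and 96.5% of WT members, against 11.5% and 13.9% of microglia in the KO and WT libraries, a cell type that should lack it and whose median depth was 6245.5 and 6647.0 UMIs. These microglia had at least 0.3% of UMIs in the 5 microglial genes and under 0.1% in Acta2, Tagln and Myh11. Microglia with more contractile RNA were thus left out beforehand, which can lower Myl9 in them. After each cell was thinned to 1000 UMIs, Myl9 was found in 91.8% of 550 KO members and 92.2% of 487 WT members, against 2.53% and 3.89% of KO and WT microglia. Thinning left out 73 KO members and 53 WT members that were shallower. Pericytes also carried Myl9, in 80.0% of 320 cells labelled KO and 81.4% of 318 labelled WT. This marker thus sets the members apart from microglia chosen in that way rather than from other mural cells. Contractile genes outside the selection are set against pericytes further on.

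The contractile apparatus was well covered: all 28 listed genes were detected, 25 of them not used by the selection, and their summed level was 55821 CPM in KO members and 52539 CPM in WT members. Acta2, the smooth muscle alpha-actin, stood at 10261 CPM in KO members and 9742 CPM in WT members. Tagln, an actin-binding protein, stood at 9285 CPM in KO members and 8830 CPM in WT members, and Myh11, the smooth muscle myosin heavy chain, at 2823 and 2468 CPM in KO and WT members. Of genes outside the selection, the light chain Myl9 was at 4436 CPM in KO members and 4570 CPM in WT members, and the beta-tropomyosin Tpm2 at 4222 CPM in KO members and 4135 CPM in WT members. Mylk, the light-chain kinase, was at 1791 CPM in KO members and 1766 CPM in WT members. In these genes the levels in the 2 libraries lay close together, with the widest gap in Myh11.

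**Figure D1:**
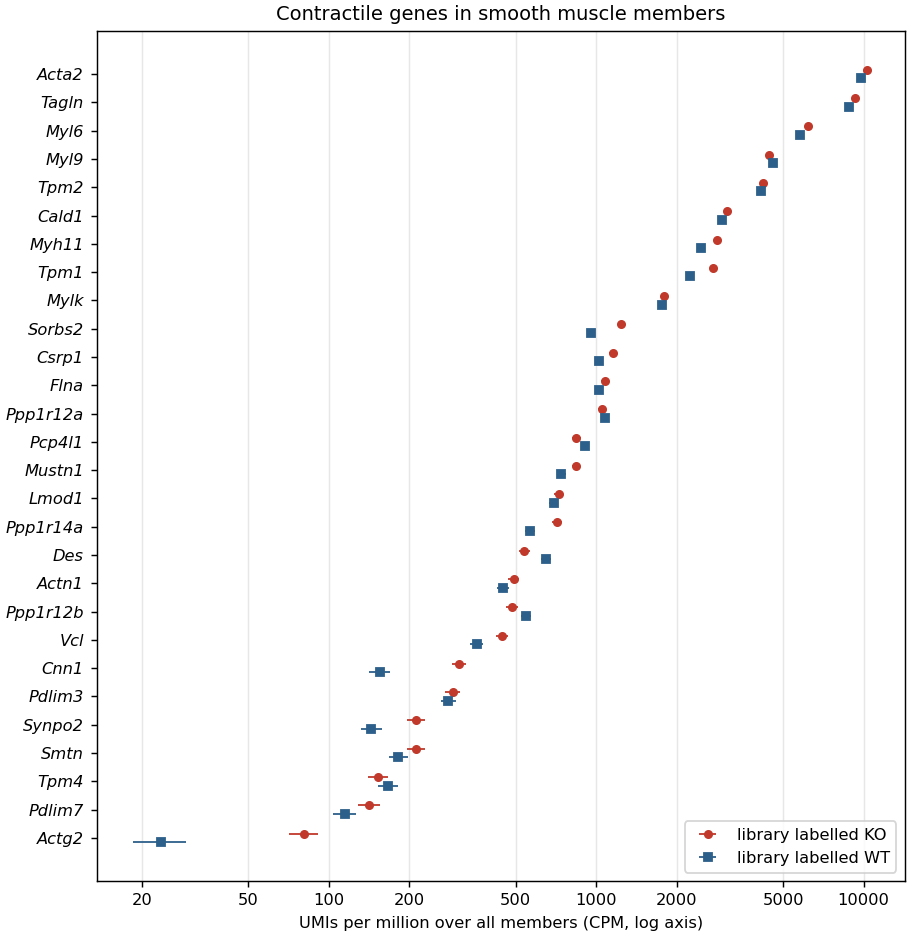
Level of the 28 contractile genes over all smooth muscle members, in CPM on a log axis, with circles for the library labelled KO (623 cells) and squares for the library labelled WT (540 cells) and bars for exact 95% Poisson intervals. Most pairs of points nearly coincide, and Actg2, Cnn1 and Synpo2 show the widest gaps, each higher in the library labelled KO.

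Promoters of the contractile genes were searched for the CArG box, CC, then 6 bases that are each A or T, then GG. RefSeq's promoter table (GRCm38.p6, 250 bases before to 50 after the start site) held 25 of the 28 genes, and 3 of these 25 (12.0%) held the box in that window, against 1.81% of all 27025 genes in the table. The 3 are shown because they pair a printed regulatory site with a gene measured here, the light chains Myl6 and Myl9 and vinculin, Vcl, which links actin to adhesion sites. The 250 bases before each start site are given 5′ to 3′ on the gene's strand, with the CArG box in capitals. The regions are chr10:128493010-128493259 on the minus strand for Myl6, chr2:156775214-156775463 on the plus strand for Myl9 and chr14:20929148-20929397 on the plus strand for Vcl.
Myl6: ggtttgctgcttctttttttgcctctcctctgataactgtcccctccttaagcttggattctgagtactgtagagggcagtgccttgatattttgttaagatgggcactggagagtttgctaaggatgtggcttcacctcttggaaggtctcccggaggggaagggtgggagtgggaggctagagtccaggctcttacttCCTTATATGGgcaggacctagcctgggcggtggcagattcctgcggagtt
Myl9: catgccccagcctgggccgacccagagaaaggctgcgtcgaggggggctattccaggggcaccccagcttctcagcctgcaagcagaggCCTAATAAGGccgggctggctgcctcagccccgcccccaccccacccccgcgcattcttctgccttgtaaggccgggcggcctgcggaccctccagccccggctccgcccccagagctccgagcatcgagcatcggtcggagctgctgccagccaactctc
Vcl: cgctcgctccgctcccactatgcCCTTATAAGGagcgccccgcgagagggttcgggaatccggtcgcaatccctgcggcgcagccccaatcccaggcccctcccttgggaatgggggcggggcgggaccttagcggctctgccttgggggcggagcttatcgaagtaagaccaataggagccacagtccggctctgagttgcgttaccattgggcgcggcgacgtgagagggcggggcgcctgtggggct
The box began 50, 161 and 227 bases before the start sites of Myl6, Myl9 and Vcl. A match describes these letters only, and the box reads the same on both strands, so each match was counted once. Myl6 was at 6218 CPM in KO members and 5792 CPM in WT members, and Vcl at 443.5 CPM in KO members and 357.0 CPM in WT members.

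Between the libraries the value per gene was log2 of (KO CPM + 10)/(WT CPM + 10), which understates the ratio of low genes. The median over the 28 contractile genes was 0.09, and 0.10 over the 25 outside the selection, against 0.00 over the 12056 genes with at least 20 UMIs in members. A list gene was counted as higher or lower past 0.32 on this log2 scale. Of the 28, 5 were higher in KO members and 0 were lower, where 8.15% of all such genes were higher and 5.26% lower. Cnn1 (calponin, an actin-binding protein of mature smooth muscle) was at 306.5 CPM in KO members and 154.7 CPM in WT members, a ratio of 1.98 (1.78 to 2.21). Synpo2, an actin-bundling Z-disc protein, was at 212.3 CPM in KO members and 144.0 CPM in WT members. Sorbs2, an adhesion adaptor, and Ppp1r14a, an inhibitor of myosin phosphatase, had ratios of 1.29 and 1.26. At the other end, the intermediate filament gene Des was at 538.3 CPM in KO members and 648.9 CPM in WT members, a ratio of 0.83 (0.778 to 0.884), which lies short of that limit.

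Actg2, the gamma-actin of visceral smooth muscle, showed the widest contractile difference (ENSMUSG00000059430, chromosome 6, 83512905 to 83536265, minus strand). It was at 80.6 CPM (71.1 to 91.2) in KO members and 23.5 CPM (18.6 to 29.2) in WT members. It had a UMI in 47 KO members, or 7.54% (5.60 to 9.91), and in 20 WT members, or 3.70% (2.28 to 5.66). Thinned to 1000 UMIs, it was found in 2.91% of KO members and 1.44% of WT members. The gene was at 0 UMIs in pericytes of both libraries and had a UMI in 0.127% of KO microglia and 0.0995% of WT microglia.

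The members with an Actg2 UMI were described after the values were seen and with no test. They were deep cells, with a median of 10183 UMIs in KO members and 11840 UMIs in WT members, and 89.4% of them in the library labelled KO and 18 of 20 in the library labelled WT had at least 2% of UMIs in Acta2, Tagln and Myh11. Rgs5 and Vtn were low in them. Rgs5, a regulator of G-protein signalling that marks mural cells, was at 76.6 CPM in KO members with Actg2 and 2012 CPM in KO members without it. In WT members it was at 26.6 CPM with Actg2 and 2602 CPM without it. Vtn, the vitronectin gene, was at 69.6 CPM with Actg2 and 1396 CPM without it in KO members, and at 15.2 and 1696 CPM with and without Actg2 in WT members.

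Several genes chosen after their values were seen, 3 of them matrix genes, were higher in those cells, and the matrix list as a whole was not counted for this split. Mgp, matrix Gla protein, an inhibitor of vessel calcification, was at 13239 CPM with Actg2 and 3758 CPM without it in KO members, and at 23025 and 1876 CPM with and without Actg2 in WT members. Eln (elastin) was at 470.1 CPM with Actg2 and 101.9 CPM without it in KO members, and at 734.3 and 55.4 CPM with and without it in WT members. Fn1 (fibronectin) was at 593.7 CPM with Actg2 and 90.4 CPM without it in KO members, and at 1012 and 34.2 CPM with and without it in WT members. The NADPH oxidase gene Nox4 was at 454.4 CPM with Actg2 and 46.5 CPM without it in KO members, and at 426.1 and 17.4 CPM with and without it in WT members. The 47 KO members with Actg2 held 68.3% of the Nox4 UMIs and 58.1% of the Cnn1 UMIs of all KO members. The 20 WT members with Actg2 held 67.5% of the Nox4 UMIs and 37.6% of the Cnn1 UMIs of all WT members. Contractile genes other than Actg2 were uneven between these cells and the rest. Synpo2 was at 501.4 CPM with Actg2 and 148.4 CPM without it in KO members, and at 437.5 and 119.2 CPM with and without it in WT members. Acta2, which the selection used, was at 14409 CPM with Actg2 and 9344 CPM without it in KO members, and at 15397 and 9263 CPM with and without it in WT members. Myl9 was nearer to even, and was at 5100 CPM with Actg2 and 4290 CPM without it in KO members, and at 5117 and 4524 CPM with and without it in WT members.

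**Figure D2:**
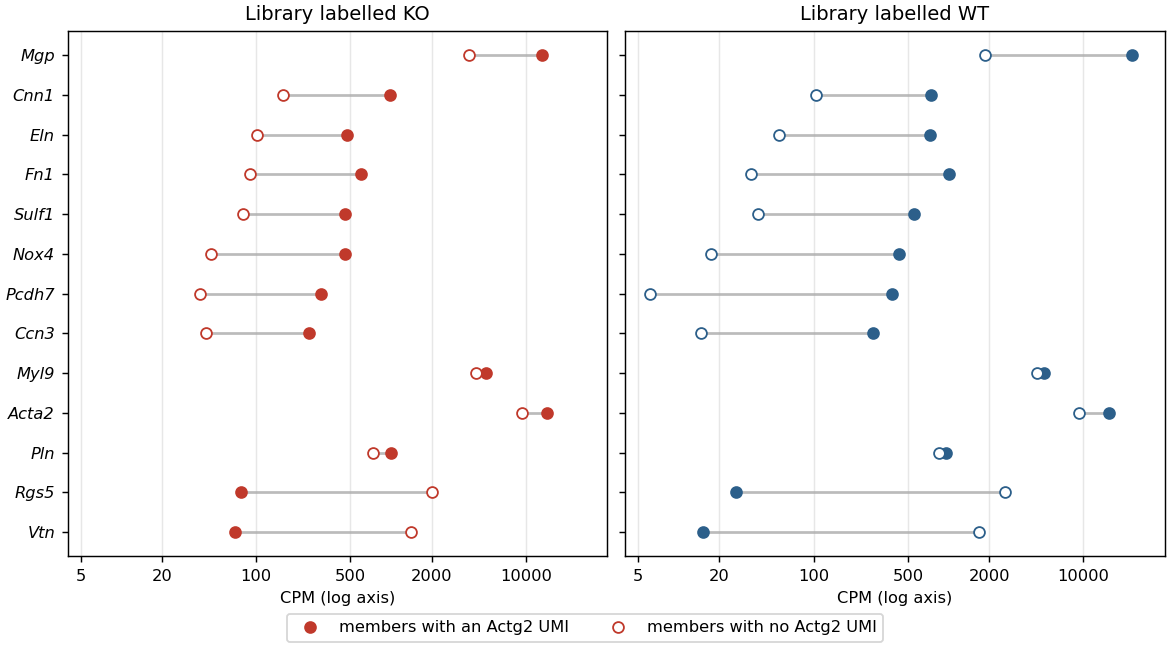
Level of 13 genes in members with an Actg2 UMI (filled circles) and with none (open circles), in CPM on a log axis, for the library labelled KO on the left (47 and 576 cells) and the library labelled WT on the right (20 and 520 cells). In both panels Mgp, Eln, Fn1, Nox4 and Cnn1 lie higher and Rgs5 and Vtn lower in the members with Actg2, while Myl9 and Pln nearly coincide.

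These cells were chosen by a UMI of a contractile gene, so setting them aside takes Actg2 to 0 and removes mostly highly contractile cells, more of them KO members. The contractile median of -0.02 that remains is in part fixed by that choice, and the same holds for the Cnn1 ratio, which was 1.499 (1.29 to 1.74). Nox4 had a ratio of 2.67 (1.93 to 3.76) and Pcdh7, a protocadherin, a ratio of 6.22 (3.78 to 10.8) among the members without an Actg2 UMI. Those members were shallower, with a median of 4299 UMIs in KO members and 5898.5 UMIs in WT members. An Actg2 transcript can be missed in them, and the part of such missed cells in these ratios was not tested. Among the members with an Actg2 UMI the KO to WT ratio was 1.07 (0.851 to 1.34) for Nox4, 0.640 (0.530 to 0.774) for Eln and 0.587 (0.498 to 0.691) for Fn1. Library and genotype cannot be told apart here.

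The members varied widely among themselves in how contractile they were. They were put into 4 ranges of the Acta2, Tagln and Myh11 share. The ranges held 74, 119, 186 and 244 KO members and 63, 109, 164 and 204 WT members for 0.3 to 0.5%, 0.5 to 1%, 1 to 2%, and 2% and over. These are ranges of a continuous share and not cell types. Of the 25 contractile genes outside the selection, 17 were higher in every next range in both libraries and 0 were lower in every next range, where 2.65% of 10010 genes were higher throughout and 4.78% lower. Myl9 stood at 1462, 1963, 3395 and 5990 CPM through the ranges in KO members and at 1590, 2407, 3657 and 6172 CPM in WT members. Tpm2 stood at 701.6, 1464, 2849 and 6101 CPM in KO members and at 1011, 1630, 2943 and 6040 CPM in WT members. Cnn1 was nearly confined to the top range in these sums, with 10.6, 32.3, 72.8 and 543.3 CPM in KO members and 0, 4.18, 31.8 and 298.9 CPM in WT members. Depth moved with the ranges too: the median was 1955.5 UMIs in the lowest range and 5744 UMIs in the top range of KO members, and 2543 and 7627.5 UMIs in those of WT members, and the part of depth in these levels was not tested.

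Mgp had no common order and stood at 1993, 6119, 8840 and 3765 CPM through the ranges in KO members and at 9955, 1311, 4541 and 2734 CPM in WT members. Genes shared with pericytes were mostly lower towards the top range. Of 12 markers, 7 were lower and 0 higher in every next range in both libraries, where 4.78% of 10010 genes were lower throughout and 2.65% higher. The summed level of 12 pericyte markers was 9455, 7344, 5542 and 1870 CPM through the ranges in KO members and 12541, 11222, 6105 and 2705 CPM in WT members. Rgs5 stood at 3157, 3350, 2342 and 680.2 CPM in KO members and at 4246, 5221, 2732 and 1126 CPM in WT members. Pdgfrb, the receptor through which PDGF recruits mural cells, stood at 499.6, 390.2, 319.7 and 134.5 CPM in KO members and at 736.5, 578.2, 324.7 and 141.1 CPM in WT members. Notch3, the mural Notch receptor mutated in the small vessel disease CADASIL, stood at 946.1, 837.5, 751.2 and 388.1 CPM in KO members and at 1168, 1181, 805.5 and 498.0 CPM in WT members. Over single cells thinned to 1000 UMIs, which share a library, the rank correlation of the selection share with 5 pericyte genes was -0.47 in 550 KO members and -0.51 in 487 WT members, and that with Myl9 was 0.61 and 0.59 in KO and WT members. The glutamate receptor gene Grm7 was the most uneven of the low-contractile genes, at 536.8 CPM under 1% and 21.4 CPM at 2% and over in KO members, and at 738.2 and 6.78 CPM under 1% and at 2% and over in WT members.

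**Figure D3:**
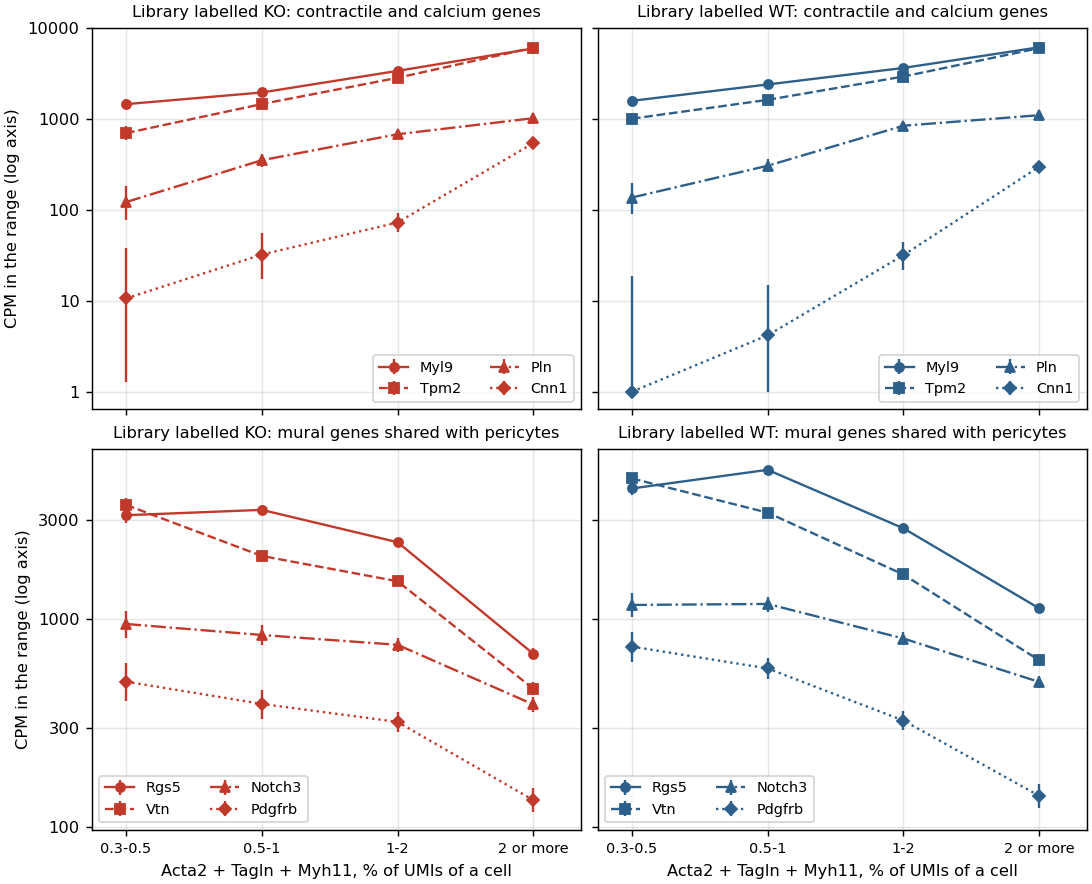
Level of 8 genes in members grouped by their Acta2, Tagln and Myh11 share (x axis, percent of a cell's UMIs), in CPM on a log axis with exact 95% Poisson intervals, for the library labelled KO on the left and the library labelled WT on the right. The contractile and calcium genes in the upper panels are higher in each next range, while Rgs5, Vtn, Notch3 and Pdgfrb in the lower panels are lowest in the top range; Cnn1 was at 0 CPM in the lowest range of WT members and is drawn at 1.

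Of 23 immediate-early genes measured in the ranges, 7 were higher in every next range in both libraries and 0 lower, against 2.65% higher and 4.78% lower of all genes, and the other 16 had no such order in both. Fos, an immediate-early transcription factor gene that tissue dissociation is known to induce, stood at 233.9, 611.4, 1657 and 3370 CPM in KO members and at 695.8, 369.5, 1266 and 2876 CPM in WT members, where the lowest range lay above the next. Vim, the intermediate filament vimentin, stood at 701.6, 807.7, 1536 and 3534 CPM in KO members and at 401.3, 605.3, 1519 and 3413 CPM in WT members. The median mitochondrial share was 3.496% in the lowest range and 6.23% in the top range of KO members, and 4.35% and 6.73% in those of WT members.

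Against the pericytes of the same library, taken by the same limits but with few contractile UMIs and with Kcnj8, Abcc9, Vtn, Higd1b and Atp13a5 in place of the contractile genes, 456 of 8325 genes (5.48%) were at least 2-fold higher in members in both libraries and 347 (4.17%) at least 2-fold lower. Both sets were chosen by expression, so these counts describe them and test nothing. Of the 25 contractile genes outside the selection, 22 were at least 2-fold higher in members. Pln, phospholamban, which restrains the calcium pump of the sarcoplasmic reticulum, was at 783.1 CPM in KO members and 7.96 CPM in KO pericytes, and at 852.0 CPM in WT members and 6.03 CPM in WT pericytes. Csrp1, a LIM protein of smooth muscle, was at 1153 CPM in KO members and 26.5 CPM in KO pericytes, and at 1022 CPM in WT members and 26.1 CPM in WT pericytes. Kcnab1, a potassium channel beta subunit, was at 654.9 CPM in KO members and 14.6 CPM in KO pericytes, and at 666.4 and 11.1 CPM in WT members and WT pericytes. Ptgis, which makes the vasodilator prostacyclin, was at 315.6 CPM in KO members and 2.65 CPM in KO pericytes, and at 290.7 and 1.00 CPM in WT members and WT pericytes. Pdlim3, Sorbs2, Crispld2, Palld, Tpm2, Nexn, Mustn1 and Enah completed the high end together with the 3 selection genes.

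The low end held known pericyte genes and transporters. Kcnj8 and Abcc9 helped to choose the pericytes, so their place at this end was largely fixed beforehand. Kcnj8, the pore of the pericyte KATP channel, was at 8.51 CPM in KO members and 716.6 CPM in KO pericytes, and at 11.0 CPM in WT members and 850.6 CPM in WT pericytes. Abcc9, its regulatory subunit, was at 18.9 CPM in KO members and 1035 CPM in KO pericytes, and at 19.0 CPM in WT members and 1311 CPM in WT pericytes. Grm3, a metabotropic glutamate receptor, was at 14.5 CPM in KO members and 865.2 CPM in KO pericytes, and at 14.9 and 1041 CPM in WT members and WT pericytes. Ptn, the growth factor pleiotrophin, was at 352.2 CPM in KO members and 5151 CPM in KO pericytes, and at 256.9 and 5229 CPM in WT members and WT pericytes. Ano4, Ifitm1, Ggt1, Pla1a, Slc22a8 and Uchl1 were the others. Only 16 cells labelled KO and 12 labelled WT met the fibroblast limits, and no gene values against so few cells are given.

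Calcium handling, receptor and relaxation genes had medians of -0.08, 0.02 and -0.15. Single genes past the limit were all lower in the calcium list and went in both directions in the receptor and relaxation lists. Of 23 ion channel and calcium genes, 0 were higher and 3 lower in KO members, against 8.15% higher and 5.26% lower of all genes, with a median of -0.08. Casq2, a calcium-binding protein of the sarcoplasmic reticulum, was at 48.2 CPM in KO members and 84.1 CPM in WT members, a ratio of 0.573 (0.468 to 0.701). Ano1, the calcium-activated chloride channel, was at 235.3 CPM in KO members and 302.9 CPM in WT members, and the channel gene Cacna1d at 56.1 CPM in KO members and 77.2 CPM in WT members. The L-type channel Cacna1c was at 642.3 CPM in KO members and 769.8 CPM in WT members and Ryr2, the ryanodine receptor, at 150.6 CPM in KO members and 121.5 CPM in WT members, both inside the limit. Casq2 and Ano1 were themselves lower in the more contractile members, at 22 and 99.6 CPM in the top range of KO members and 33.3 and 119.6 CPM in that of WT members.

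Among 22 measured receptors of vasoactive signals, 3 were higher and 5 lower in KO members, against the same shares of all genes, with a median of 0.02. P2rx1, the ATP-gated channel of sympathetic transmission, was at 33.1 CPM in KO members and 19.9 CPM in WT members, a ratio of 1.66 (1.21 to 2.29). Ramp1, a subunit of the CGRP receptor, was at 139.9 CPM in KO members and 104.5 CPM in WT members. F2r, the thrombin receptor, was at 20.5 CPM in KO members and 35.3 CPM in WT members, and P2ry14, a UDP-glucose receptor, at 117.5 CPM in KO members and 172.5 CPM in WT members. The endothelin receptor Ednra was at 246.0 CPM in KO members and 276.5 CPM in WT members, a ratio of 0.890 (0.808 to 0.980). Adra1d and Htr2a were at 0 UMIs in both libraries, a count of 0 in 623 KO members and 540 WT members that does not show absence of the receptors. In the nitric oxide and cGMP list, 2 of 18 were higher and 2 lower, with a median of -0.15. Rgs2, which dampens Gq signalling, was at 57.7 CPM in KO members and 38.6 CPM in WT members, while Rgs5 was at 1662 CPM in KO members and 2401 CPM in WT members, a ratio of 0.692 (0.668 to 0.717). The soluble guanylate cyclase subunits Gucy1a1 and Gucy1b1 had ratios of 0.856 and 0.860, inside the limit.

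Rgs5 is itself 1 of 12 listed pericyte markers, of which 6 were lower in KO members and 0 higher. Over all genes, 5.26% were lower and 8.15% higher. The sum of the 12 markers, Rgs5 included, was 4110 CPM in KO members and 5571 CPM in WT members. Of 15 measured Notch pathway genes, 1 was higher and 2 lower in KO members, against the same shares of all genes, with a median of -0.11. Jag1, a ligand, was at 91.4 CPM in KO members and 128.9 CPM in WT members. Notch3, the mural receptor, was at 586.5 CPM in KO members and 732.1 CPM in WT members, inside the limit. Vtn was at 1156 CPM in KO members and 1565 CPM in WT members. Kcnj8 was at 8.51 CPM in KO members and 11.0 CPM in WT members, on 27 and 37 UMIs. Abcc9 was at 18.9 CPM in KO members and 19.0 CPM in WT members, on 60 and 64 UMIs. Both KATP channel genes lay inside the limit, and counts this low do not tell them apart. In the 270 KO members and 180 WT members with under 0.1% of UMIs in Kcnj8, Abcc9, Vtn, Higd1b and Atp13a5 together, Rgs5, which that filter did not use, had a log2 value of -0.83.

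Matrix genes were more often higher in KO members. Of 32 measured genes of basement membrane and elastic matrix, 11 were higher and 1 lower, against the 8.15% and 5.26% of all genes, with a median of 0.18. Col3a1, fibrillar collagen III, was at 39.4 CPM in KO members and 15.7 CPM in WT members, a ratio of 2.50 (1.80 to 3.52). Col18a1, a basement membrane collagen, was at 146.2 CPM in KO members and 84.1 CPM in WT members. The 47 KO members with Actg2 held 62.3% of the Col18a1 UMIs of KO members, and the 20 WT members with Actg2 held 50.5% of those of WT members. The matrix list was not counted without these cells. Itga5, the fibronectin receptor subunit, was at 48.2 CPM in KO members and 25.5 CPM in WT members. Lama5, a laminin chain, was the member counted lower, at 115.6 CPM in KO members and 153.8 CPM in WT members, and Timp3 and Lamb2 had ratios of 0.817 and 0.841. The fibroblast markers, a list that also holds Col3a1, had a sum of 649.2 CPM in KO members and 425.9 CPM in WT members. Of the 7 measured markers, 5 were higher in KO members and 0 lower, against 8.15% higher and 5.26% lower of all genes. The defining Dcn and Col1a1 were at 11.0 and 3.15 CPM in KO members and 4.75 and 0.297 CPM in WT members. The part of fibroblast transcripts in the matrix counts was not tested. Without the members that held another cell type's markers at 1% of UMIs or more, 12 of the 32 matrix genes were higher and 1 lower. As a mean over cells 7 were higher and 1 lower, and with median-of-ratios scaling 10 were higher and 2 lower. The shares of all genes under these settings are not given.

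Of 14 measured genes linked with phenotypic switching, in which smooth muscle loses contractile proteins and gains matrix and migration genes, 4 were higher and 0 lower in KO members, against 8.15% higher and 5.26% lower of all genes. The calcium-binding S100a6 was at 481.6 CPM in KO members and 197.2 CPM in WT members, a ratio of 2.44 (2.23 to 2.68), and S100a4 at 62.4 CPM in KO members and 26.4 CPM in WT members. Spp1 (osteopontin) was at 47.9 CPM in KO members and 30.3 CPM in WT members. Thbs1 (thrombospondin) was higher as well, with a ratio of 1.42, while Klf4, a transcription factor that represses contractile genes, was at 102.1 CPM in KO members and 99.8 CPM in WT members. The 47 KO members with Actg2 held 49.1% of the S100a6 UMIs of KO members, and the 20 WT members with Actg2 held 31.9% of those of WT members. In the PDGF and TGF-beta list 2 of 24 were higher, among them Pdgfd, a ligand of the PDGF beta receptor, at 117.2 CPM in KO members and 88.8 CPM in WT members. The 3 that were lower were Tgfbr3, Id3 and Id1, with ratios of 0.748, 0.769 and 0.782. Foxs1, a forkhead factor of mural cells, was the 1 lower member of 14 myocardin and SRF regulators, at 42.8 CPM in KO members and 73.7 CPM in WT members. Myocd itself, myocardin, was at 207.6 CPM in KO members and 173.1 CPM in WT members, a ratio of 1.20 (1.07 to 1.34).

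Interferon-stimulated genes gave the broadest difference between the libraries in these cells. Type I interferons act through a transcription factor complex that contains STAT2 and IRF9, which binds the interferon-stimulated response element and raises antiviral genes in nearly any cell. Of 35 measured genes of this response, 26 were higher in KO members and 0 were lower, against the 8.15% and 5.26% of all genes, and their median was 0.60. Their summed level over the 38 listed genes was 2406 CPM in KO members and 1341 CPM in WT members. That interferon genes were higher in other cells of the library labelled KO was known when the list was chosen. Ifi27l2a, an interferon-induced gene (ENSMUSG00000079017, chromosome 12, 103442167 to 103443680, minus strand), was at 189.6 CPM (174.8 to 205.4) in KO members and 39.5 CPM (33.1 to 46.8) in WT members. Ifit1, which binds viral RNA, was at 50.4 CPM in KO members and 13.7 CPM in WT members, a ratio of 3.69 (2.64 to 5.24). Isg15, a ubiquitin-like modifier, was at 108.4 CPM in KO members and 43.4 CPM in WT members, a ratio of 2.50 (2.05 to 3.05). Of the factors themselves, Irf9 was at 31.5 CPM in KO members and 12.5 CPM in WT members and Stat2 at 23 CPM in KO members and 16.9 CPM in WT members. The low end of the list held Ifi35, at 52.6 CPM in KO members and 52.0 CPM in WT members, Dhx58 and Usp18. Ifit3 and Ifit3b are near-identical copies whose reads may be split, so their separate values are uncertain.

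**Figure D4:**
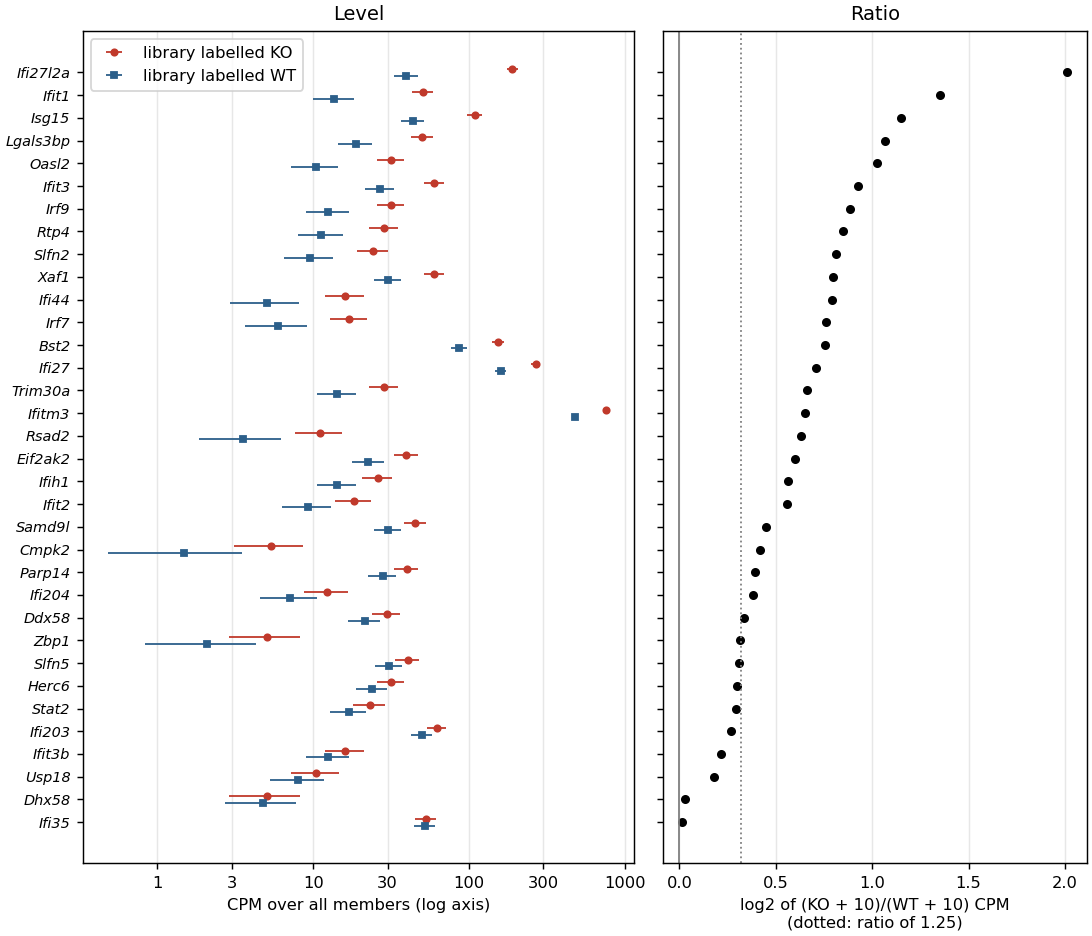
Interferon-response genes in smooth muscle members, 34 of the 35 measured, with levels in CPM on a log axis on the left (circles for the library labelled KO, squares for the library labelled WT, bars for exact 95% Poisson intervals) and the log2 ratio with 10 CPM added on the right. All 34 ratios lie above 0, and 25 lie past the dotted line at 0.32.

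The response element, searched as GAAANNGAAA on both strands, was in the promoter windows of 16 of the 28 listed genes in RefSeq's table (57.1%), against 3.99% of all 27025 genes. Of those holders with at least 20 UMIs, the 3 with the highest log2 values are shown as the 250 bases before the start site, 5′ to 3′ on the gene's strand, with matches in capitals, overlapping ones joined. The regions are chr19:34640639-34640888 on the plus strand for Ifit1, chr4:156200819-156201068 on the minus strand for Isg15 and chr19:34583279-34583528 on the plus strand for Ifit3.
Ifit1: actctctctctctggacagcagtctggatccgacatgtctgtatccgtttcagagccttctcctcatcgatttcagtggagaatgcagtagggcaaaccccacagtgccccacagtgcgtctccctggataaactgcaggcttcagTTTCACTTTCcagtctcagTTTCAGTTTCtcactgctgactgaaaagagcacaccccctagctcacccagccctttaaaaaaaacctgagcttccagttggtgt
Isg15: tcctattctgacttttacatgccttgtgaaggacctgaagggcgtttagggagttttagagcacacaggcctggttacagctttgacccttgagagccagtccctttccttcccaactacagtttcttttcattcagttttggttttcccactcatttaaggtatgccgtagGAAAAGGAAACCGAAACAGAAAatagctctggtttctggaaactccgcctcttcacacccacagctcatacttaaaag
Ifit3: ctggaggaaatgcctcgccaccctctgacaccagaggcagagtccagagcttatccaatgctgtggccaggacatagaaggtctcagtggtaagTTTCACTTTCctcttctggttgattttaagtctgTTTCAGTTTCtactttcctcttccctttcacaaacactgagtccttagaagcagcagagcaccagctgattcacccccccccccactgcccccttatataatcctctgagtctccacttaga
Matches began 104 and 85 bases before the start site of Ifit1, 78, 72 and 66 bases before that of Isg15, and 156 and 122 bases before that of Ifit3. Matches in Ifit1 and Ifit3 were on the other strand, and those in Isg15 overlapped on the gene's strand. Of the 3, Ifit3 was at 59.9 CPM in KO members and 26.7 CPM in WT members.

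The interferon difference was spread over many cells. A UMI of the list was found in 99.2% of KO members (98.1 to 99.7) and 95.2% of WT members (93.0 to 96.8), and after thinning to 1000 UMIs in 82.5% of KO members and 67.1% of WT members. The list took a median of 0.191% of a KO member's UMIs and 0.114% of a WT member's, with upper quartiles of 0.313% and 0.169% in KO and WT members. The 10 cells highest for the list held 17.6% of its UMIs in KO members and 15.2% in WT members. Ifi27l2a alone had a UMI in 246 KO members (39.5%) and 72 WT members (13.3%), and in 14.7% of thinned KO members and 2.67% of thinned WT members. Microglia are no background for these genes, since they carry them as well: Ifi27l2a had a UMI in 78.3% of KO microglia and 35.0% of WT microglia.

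Across the ranges of the contractile share most interferon genes had no order common to both libraries. Of 30 measured there, 0 were higher and 6 lower in every next range in both libraries, against 2.65% higher and 4.78% lower of all genes. Isg15 stood at 202.0, 186.4, 101.3 and 82.5 CPM through the ranges in KO members and at 50.8, 52.2, 45.8 and 38.2 CPM in WT members, so every KO range lay above every WT range. Ifi27l2a stood at 494.3, 347.9, 234.2 and 89.8 CPM in KO members and at 66.0, 66.8, 53.3 and 19.1 CPM in WT members, again with no overlap. Other genes of the list did overlap. Ifit1 was at 22.6 CPM in the top range of KO members and 40.6 CPM in the lowest range of WT members. Ifitm3 was at 592.2 and 706.0 CPM in those ranges. How many genes of the list, or of all genes, had no overlap was not counted. In the top range alone the list median was 0.49, with 21 of 28 measured genes higher in KO members and 0 lower. The share of all genes past the limit in that range is not given. The summed microglial markers also differed across ranges, at 7563, 5781, 4279 and 2675 CPM in KO members and 6192, 6308, 3955 and 2398 CPM in WT members, and their part in the interferon levels was not tested. Over all members that microglial sum was 3837 CPM in KO members and 3670 CPM in WT members, with 0 of 12 markers past the limit either way. Summed endothelial markers stood at 967.3, 646.2, 434.7 and 255.5 CPM through the ranges in KO members. In WT members they stood at 518.1, 601.2, 301.3 and 210.2 CPM. Over all members they were at 400.7 CPM in KO members and 312.7 CPM in WT members. Of 11 measured, 4 were higher and 1 lower, against 8.15% and 5.26% of all genes. Their part was not tested either.

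The same list was also more often higher in the library labelled KO among pericytes, endothelial cells and microglia. Its median was 0.86 in pericytes with 29 of 31 genes higher (14.7% of all genes measured there), 1.11 in endothelial cells with 34 of 38 higher and 1 lower (1.46% of all genes higher and 1.24% lower) and 1.11 in microglia with 36 of 38 higher (1.14% of all genes). In the 28 fibroblasts only 5 of the genes could be measured, of which 2 were higher and 1 lower, where 30.3% of all genes were higher and 31.4% lower. The medians are given side by side, and a difference between the sets was not tested. Isg15 was at 108.4 CPM in KO members and 43.4 CPM in WT members, at 677.9 CPM in KO endothelial cells and 124.5 CPM in WT endothelial cells, and at 67.1 CPM in KO microglia and 15.6 CPM in WT microglia. Of MHC class I presentation genes, several of which interferon induces, 5 of 21 were higher and 1 lower in KO members. Of all genes in members, 8.15% were higher and 5.26% lower. H2-T23 was at 59.5 CPM in KO members and 36.2 CPM in WT members and B2m, the invariant light chain, at 561.3 CPM in KO members and 448.7 CPM in WT members, while H2-D1 was at 263.0 CPM in KO members and 269.1 CPM in WT members.

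**Figure D5:**
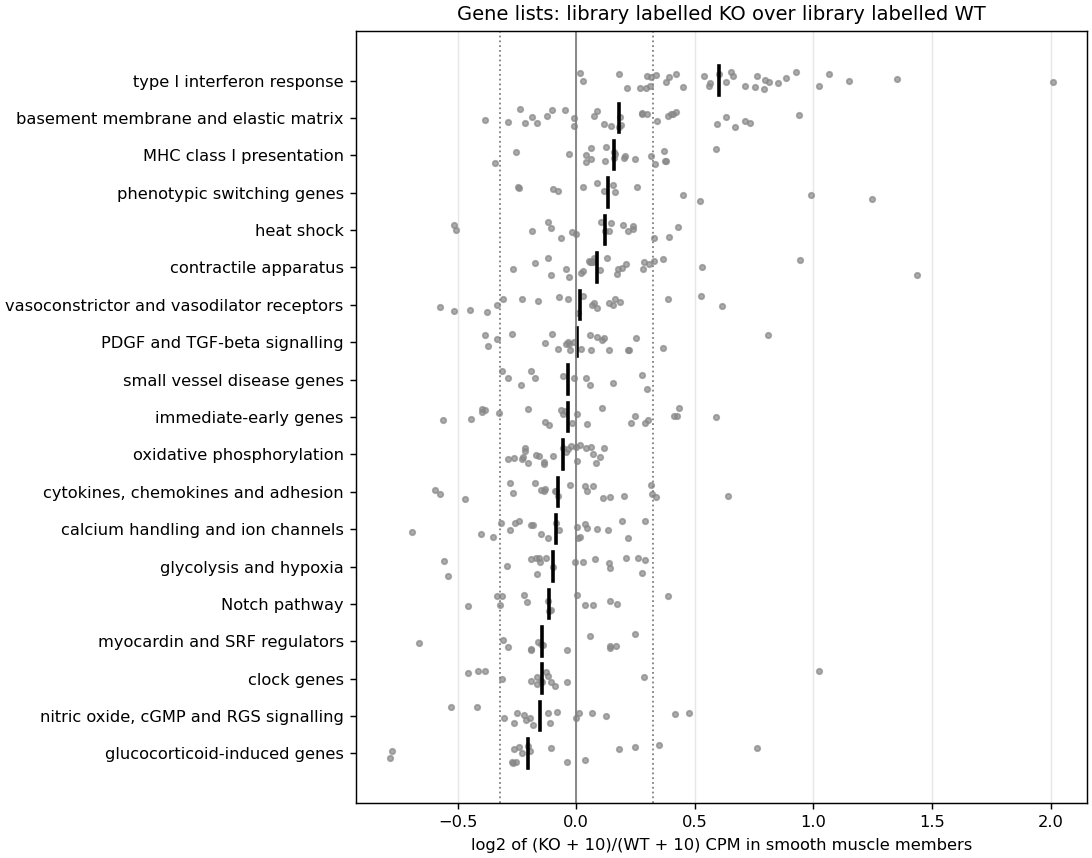
Log2 ratio of the library labelled KO to the library labelled WT, each with 10 CPM added, for every measured gene of 19 lists (grey points, 1 per gene) with the median of each list (black bar) and dotted lines at 0.32 either way. The interferon list lies apart at a median of 0.60, and the other medians lie between -0.20 and 0.18.

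Stress and clock genes were past the limit in both directions. Of 24 immediate-early genes, 4 were higher and 6 lower in KO members, against 8.15% higher and 5.26% lower of all genes, with Ccn2, a YAP target, at 370.8 CPM in KO members and 243.2 CPM in WT members and Fosl2 at 52.6 CPM in KO members and 82.6 CPM in WT members. Of 19 heat shock genes, 3 were higher and 2 lower, the lower pair being Hspa1a and Hspa1b, near-identical copies whose reads may be split. Of 17 glucocorticoid-induced genes, 2 were higher and 2 lower, and their median of -0.20 was the lowest of the lists. Zbtb16 was at 62.4 CPM in KO members and 114.9 CPM in WT members and Fkbp5 at 61.4 CPM in KO members and 112.3 CPM in WT members, while the metallothionein Mt2 was at 91.0 CPM in KO members and 49.6 CPM in WT members. Of 16 clock genes, Nr1d1, the repressor REV-ERBalpha, was higher, at 114.0 CPM in KO members and 51.1 CPM in WT members, a ratio of 2.23 (1.86 to 2.69) seen over 215 KO members and 125 WT members with a UMI. Rora, which competes with it for the same sites, was at 285.4 CPM in KO members and 395.9 CPM in WT members, and Per3 and Cry1 were lower too, while the hour of collection is not stated. None of 25 oxidative phosphorylation genes and none of 12 genes of inherited small vessel disease passed the limit either way, and 2 of 19 glycolysis and hypoxia genes, Pfkl and Slc2a3, were lower. Of 23 cytokine and adhesion genes 2 were higher and 3 lower: Csf1, a growth factor of microglia, was at 37.5 CPM in KO members and 20.5 CPM in WT members, while Il34, another ligand of the same receptor, was at 172.6 CPM in KO members and 242.6 CPM in WT members. Cd200, the ligand of the receptor deleted in the mutant, was at 275.6 CPM in KO members and 345.4 CPM in WT members, a ratio of 0.798 (0.730 to 0.872).

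Across all genes, 83 of 9873 (0.841%) were at least 2-fold higher in KO members and 3 (0.0304%) at least 2-fold lower. Many rested on few cells: in 40 of the 83 at least 50% of the KO UMIs lay in 3 cells. Of the named genes, Gzma, a granule protease of cytotoxic lymphocytes, had 83 UMIs in 2 KO members and 9 UMIs in 1 WT member. Fam183b, Meig1, Npas3 and Ncam1 had 49.4%, 66.7%, 63.5% and 66.0% of their KO UMIs in 3 cells. Mt3, a metallothionein of astrocytes, was at 298.9 CPM in KO members and 57.6 CPM in WT members, and Nnat and Il1rapl1 completed the high end with Ifi27l2a and Actg2. Markers of ciliated ependymal cells took at least 1% of UMIs in 13 KO members and 0 WT members, and 29 KO members and 2 WT members passed that limit for any of 12 other cell types. Without those members 30 genes were 2-fold higher. Of the 83, 29 were also called with the 3 highest cells of each gene and library set aside, among them Ifi27l2a, Isg15, Actg2, Nox4, S100a6, Pcdh7, Aebp1 and Nr1d1. Summed choroid plexus markers, led by Ttr, were at 7171 CPM in KO members and 3668 CPM in WT members, and at 4035 CPM in KO microglia and 2824 CPM in WT microglia. The 3 lower genes were Ctla2a, at 24.9 CPM in KO members and 76.9 CPM in WT members, the platelet gene Ppbp, with 3 UMIs in KO members and 59 in WT members, and the haemoglobin gene Hba-a1, with 5 UMIs in KO members and 45 in WT members, whose reads may be split with its copy Hba-a2. Scrublet called 12 KO members and 2 WT members doublets, in libraries where it called 3.84% of KO cells and 0.825% of WT cells against 15.3% and 14.6% expected, so doublets remain among the members.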

How the data were processed

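Raw UMI counts per gene and barcode, deposited by the authors, came from Cell Ranger 7.0.1 according to their headers, while the submitters' processing notes list STAR, GRCm38/mm10 and Seurat 3.1.1. The lowest barcode had 500 UMIs in both libraries, and whether a filter set this is not given in the sources used here. The members, gene lists and limits were chosen with earlier results of these data known.

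Counts were summed over members per library and divided by the library's member total (CPM). Genes with at least 50 UMIs were counted at a 2-fold ratio and list genes with at least 20 UMIs past 0.32, both on log2 of the ratio with 10 CPM added. Intervals are exact Poisson, exact conditional binomial for ratios and Clopper-Pearson for shares. Thinning drew 1000 UMIs per cell. Genes were named by rule: the top 10 and bottom 10 of the 2-fold genes, leaving out mitochondrial, ribosomal, haemoglobin, sex-linked, immunoglobulin, predicted and other-cell marker genes, the contractile list, up to 3 at each end of other lists, and the 15 highest and 10 lowest against pericytes; Jag1, Notch3, Pdgfrb, Vtn, Grm7 and other genes outside it were chosen after their values were seen, as were all results by Actg2. Of the listed symbols 4 (Irag1, Cyr61, Ctgf, Bmal1) have other names in the files. Positions are from GENCODE vM21 (GRCm38). The count and interval code was checked on simulated data. Python 3.11.15, numpy 2.4.6, scipy 1.17.1, pandas 2.3.3 and scanpy 1.11.5 were used. Some items are not reported here.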

Additional observations from a re-analysis of the deposited data

How the results depend on the processing

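The median of the interferon list stayed above 0 under all 17 alternatives, of which 14 were planned and 3 were added after the data were seen (without mixed members, without the 3 highest cells per gene, without members with an Actg2 UMI). The number of interferon genes higher in KO members was 12 with 50 CPM added and 17 after thinning. The contractile median, 0.09, was 0.29 with at most 5% mitochondrial UMIs (0.25 without the selection genes) and -0.018 without members with an Actg2 UMI (-0.022 without the selection genes), a filter on a gene of the list. The share ratio was 1.26 with at most 5% mitochondrial UMIs and 1.41 with pericyte genes under 0.1%. The 2-fold higher count, 83, was 47 at a contractile share of at least 1%, 186 and 12 with 1 and 50 CPM added, 18 after thinning, 30 without mixed members and 43 without the 3 highest cells. The 2-fold lower count, 3, was 18 with at most 5% mitochondrial UMIs, 5 without doublets, 6 with pericyte genes under 0.1%, 25 and 0 with 1 and 50 CPM added, 6 without mitochondrial, haemoglobin and other-cell genes in the total, 5 with median-of-ratios scaling, 5 as a mean over cells, 1 at a minimum of 100 UMIs and 1 without the 3 highest cells. Of single genes, Gzma was at -0.71 and Vtn, itself among the genes filtered, at 0.32 with pericyte genes under 0.1%, and Ncam1 at -0.14 with at most 5% mitochondrial UMIs. Other causes were not tested. No paired analysis was possible because each group is 1 library. Depth limits genes under about 20 UMIs.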
